A study of Mus musculus with 20 samples.

Results

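The genes described here are 32 genes of hepatic fatty acid oxidation and ketone body formation, taken by symbol from a list of mitochondrial and peroxisomal beta-oxidation, omega oxidation, ketogenesis and targets of the nuclear receptor PPARα. They are 32 of the 28100 genes in 2 tables of read counts, 1 table per experiment. All 32 were found in both tables, and all 32 passed the filter on low counts in each of the 5 comparisons. For the description they were put in 8 blocks by role: activation and the carnitine shuttle (6 genes), the mitochondrial oxidation spiral (8), helper enzymes for unsaturated fatty acids (3), electron transfer (3), peroxisomal oxidation (5), omega oxidation (4), ketone bodies (1) and other genes associated with PPARα (2).

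The study lowered or raised Pklr, the gene of the pyruvate kinase of liver and red cells, in 20 male C57BL/6J mice. Each mouse received 1 AAV8 vector by vein at 8 weeks of age, was kept on the HF/HS diet Research Diets D12266B, and was sampled at 25 weeks, with 5 livers in each of 4 groups. In the knockdown experiment the vector carried a hairpin against Pklr (shPKLR) or, as control, a hairpin against firefly luciferase (shLUC). In the overexpression experiment it carried the Pklr coding sequence (PKLR) or, as control, GFP (GFP). All 4 groups thus shared the virus, the diet, the sex and the strain. The vectors used the thyroxine binding globulin promoter, whose activity is in hepatocytes, and the RNA came from whole frozen liver, so that fewer cells of a type and less RNA per cell cannot be told apart.

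Fatty acids enter oxidation after they are joined to coenzyme A, are carried into mitochondria as carnitine esters and are then shortened in repeated rounds of the same reactions. Very long chains are first shortened in peroxisomes, and a side route in the endoplasmic reticulum oxidizes the far end of the chain. In fasting, hepatocytes turn the acetyl-CoA that results into ketone bodies, and PPARα, a receptor for fatty acids, raises transcription of many of these enzymes.

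The total was between 29933820 and 45413803 counts in 19 of the libraries, and shPKLR replicate 4 held 167891680. Values are in CPM, a gene's share of its library's counts after TMM scaling over all 20 livers, and the lowest count of any of the 32 genes in any liver was 471. Pklr itself followed the vectors: its mean was 479 CPM with shLUC and 54.9 CPM with shPKLR, 118 CPM with GFP and 741 CPM with PKLR, and the groups of each experiment did not overlap. The lowest PKLR liver was replicate 4, at 378 CPM. Summed over 8 hepatocyte markers, the level ran from 68575 to 119844 CPM over the 20 livers. No marker of the hepatocyte, macrophage, stellate, endothelial, cholangiocyte, lymphocyte or erythroid lists was at 0 counts over a whole group.

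One library was low for most of these genes. Liver shPKLR replicate 4 was the lowest of its group for 21 of the 32 genes. Its log2 deviations from the median of the other livers of its group ran with exon length. That length counts once each exon base of any annotated transcript of a gene. The Spearman coefficient was -0.216 across 16345 genes and -0.431 across the 32, given as descriptions of genes in 1 library. The coefficient over all genes was as far from 0 in other livers, at 0.429 in shLUC replicate 5 and -0.292 in PKLR replicate 5. Over the 32 genes it was -0.447 in GFP replicate 5, -0.396 in shPKLR replicate 1 and 0.395 in shPKLR replicate 3. In shPKLR replicate 4 the median deviation was 0.174 for the shortest 20% of genes, the farthest from 0 of any liver. It was -0.135 for the longest 20%. In shLUC replicate 5 these medians were -0.122 and 0.153. The part of exon length in the values of shPKLR replicate 4 was not tested. Leaving out shPKLR replicate 4 changed the sign of the knockdown value or moved it by over 1.5 times for 25 of the 32 genes, and where such a gene's knockdown value is printed below, the value without this liver stands beside it. In the same way shPKLR replicate 5 was the highest of its group for 16 genes, PKLR replicate 1 for 20, and PKLR replicate 2 was the lowest for 18.

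With Pklr lowered or raised, no gene of the 32 passed edgeR's quasi-likelihood test at a Benjamini-Hochberg adjusted p of 0.05 over all genes. In the knockdown 0 of 32 were called, where the same rule called 0.00641% of the 15611 genes tested. That was 1 gene, Pklr itself. In overexpression 0 of 32 were called, against 2.03% of 15842 genes (1.19% higher and 0.846% lower). At an unadjusted p under 0.05, 4 of the 32 were lower (Acsl5, Hadh, Cyp4a10 and Vnn1) and 1 higher (Eci2) with shPKLR, where the rule took 5.66% of all genes as lower and 9.32% as higher. In overexpression 7 were lower (Cpt1a, Cpt2, Crat, Ehhadh, Acaa1b, Cyp4a14 and Aldh3a2) and 0 higher, against 9.16% and 9.68% of all genes. DESeq2 called 2 of the 32 lower in the knockdown, Acsl5 and Cyp4a10, against 0.884% of all genes, and 2 lower in overexpression, Crat and Ehhadh, against 3.62%. Limma-voom called none in either.

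Most log2 fold changes of the 32 genes were small and below 0 in both experiments. With shPKLR 27 of 32 were negative, with a median of -0.11, whereas 47.2% of all genes were negative with a median of 0.02. With PKLR 23 of 32 were negative, with a median of -0.10, and 48.9% of all genes were negative with a median of 0.0057. The knockdown median rests on 2 livers of opposite deviation: it was -0.041 without shPKLR replicate 4, with 21 of 32 genes negative, and -0.22 without shPKLR replicate 5, with 28 negative. The overexpression median was -0.15 without PKLR replicate 1 and -0.051 without PKLR replicate 2. Both experiments, which share no livers, gave a negative value for 18 of the 32 genes and a positive value for 0, while 16.2% and 20.5% of 15445 genes did so. With 27 and 23 of 32 negative in the single experiments, 18 is the lowest count possible. It therefore does not show that the experiments agree gene by gene. Without shPKLR replicate 4 the counts of 18 and 0 were 14 and 2. The other genes were negative with shPKLR and positive with PKLR in 9 cases and the reverse in 5.

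**Figure D1:**
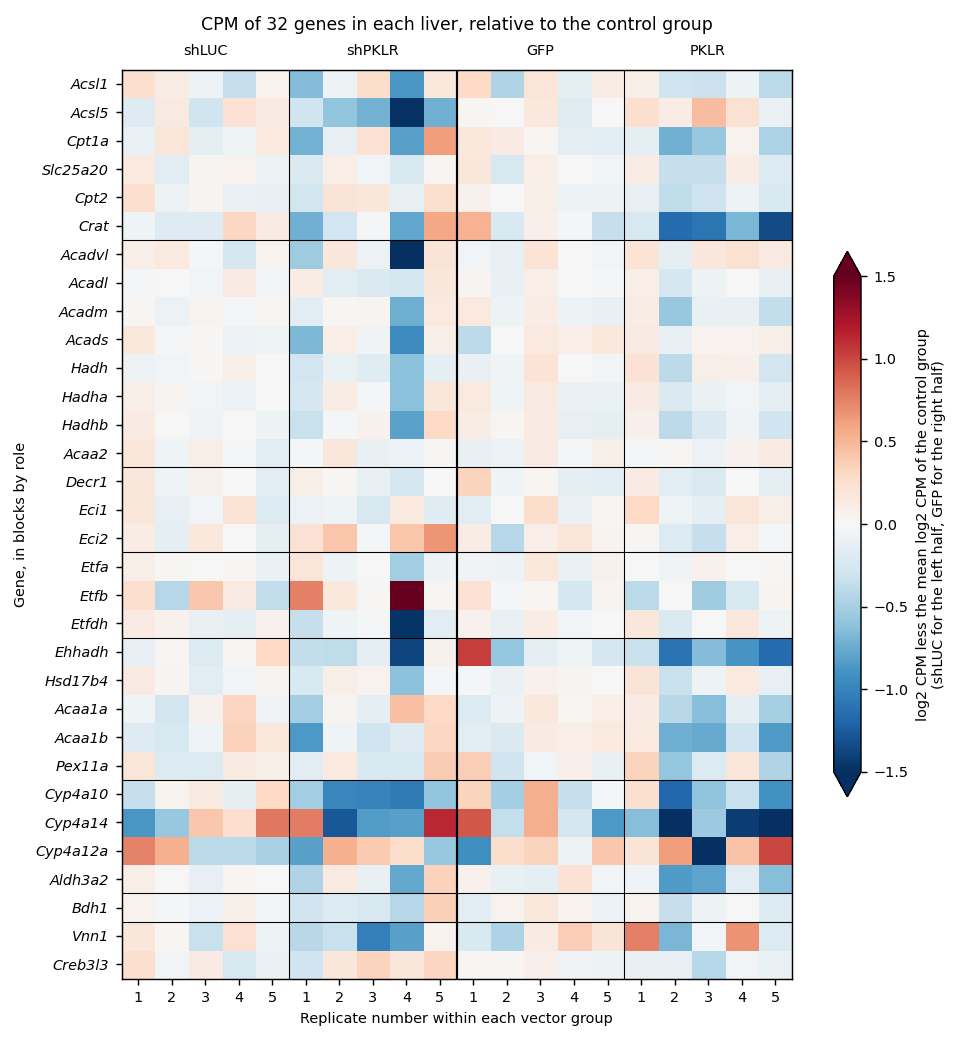
Colour map of the log2 CPM of each of the 32 genes (rows, in blocks by role) in each of the 20 livers (columns, by vector group and replicate number), less the mean log2 CPM of shLUC for the 10 hairpin livers and of GFP for the other 10; the scale is cut at 1.5 in both directions. The blue column of shPKLR replicate 4, which was lowest of its group for 21 genes, and the blue cells of Crat, Ehhadh and Cyp4a14 in most PKLR livers stand out.

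The intervals bound what the livers could show. The 95% interval of the log2 fold change lay inside a 2-fold change for 28 of the 32 genes in the knockdown and for 27 in overexpression. It lay inside a 1.5-fold change for 17 and 23 genes. The genes whose interval passed a 2-fold change were Acsl5, Etfb, Cyp4a10 and Cyp4a14 in the knockdown, and Crat, Ehhadh, Cyp4a10, Cyp4a14 and Cyp4a12a in overexpression.

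**Figure D2:**
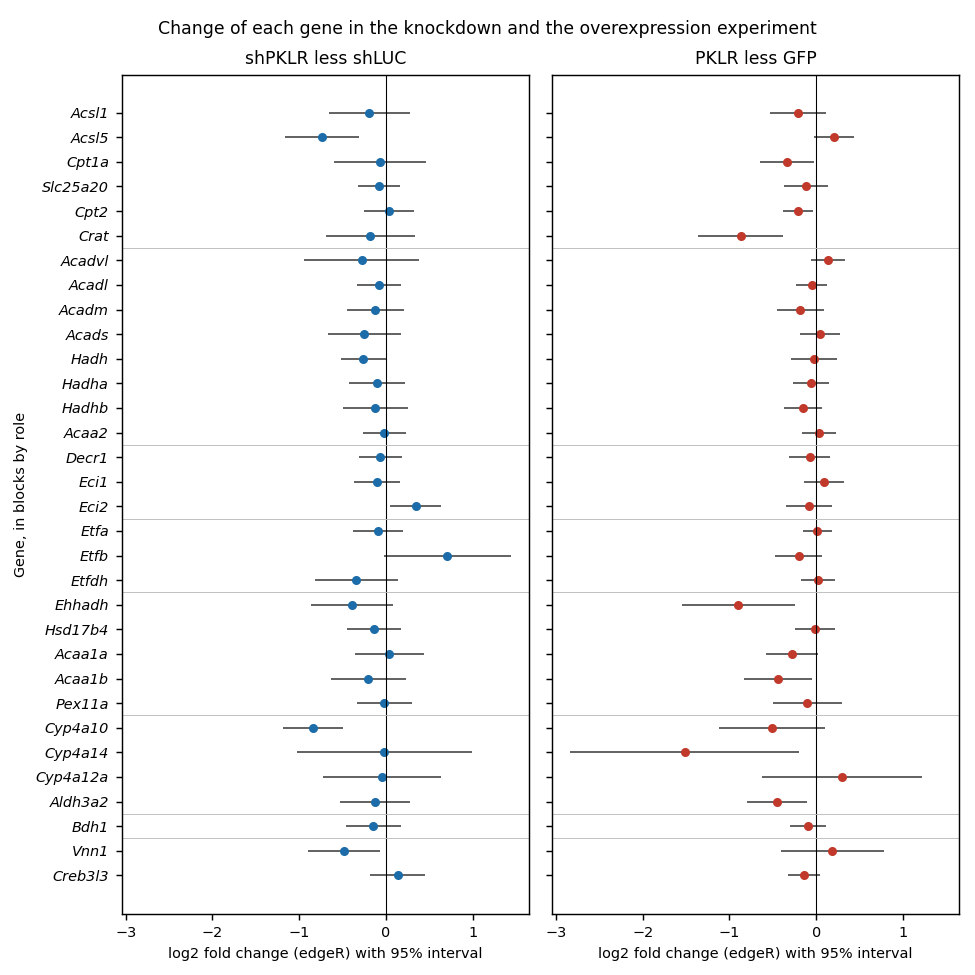
Log2 fold change of each gene (rows, in blocks by role) with its 95% interval from edgeR, for shPKLR less shLUC on the left and PKLR less GFP on the right, 5 livers per group. Points of the knockdown lie mostly just below 0, with Acsl5 at -0.74 and Cyp4a10 at -0.84 farthest down. Etfb lies farthest up at 0.71, a value that was 0.23 without shPKLR replicate 4. In overexpression Crat, Ehhadh and Cyp4a14 lie farthest down.

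Among the genes described here, activation and the carnitine shuttle held the 1 gene called in the overexpression effect less the knockdown effect. Acsl5 (ENSMUSG00000024981; GRCm38 chromosome 19, 55251938 to 55297720, forward strand) encodes an acyl-CoA synthetase that joins long-chain fatty acids to coenzyme A. Replicates 1 to 5 of shLUC were at 415, 521, 385, 549 and 520.4 CPM, and those of shPKLR were at 385, 315, 289, 169 and 287 CPM. Every shPKLR liver was below every shLUC liver, the closest pair being 385.0 and 385.3 CPM, and shPKLR replicate 4 was the lowest. GFP livers were at 342, 338, 379, 299 and 342 CPM and PKLR livers at 403, 365, 466, 396 and 317 CPM. These groups overlapped, with 3 of 5 PKLR livers above the highest GFP liver.

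The mean of Acsl5 with shPKLR was 60.4% of that with shLUC, 289 ± 78.0 against 478 ± 72.8 CPM (SD, n = 5 each), a log2 fold change of -0.74 (SE 0.20, edgeR adjusted p = 0.21), and of -0.59 without shPKLR replicate 4. With PKLR it was 115% of that with GFP, 389.5 ± 54.6 against 340.0 ± 28.5 CPM (SD, n = 5 each), with a log2 fold change of 0.21 (SE 0.11, edgeR adjusted p = 0.32). The overexpression effect less the knockdown effect was 0.92 (SE 0.23, 95% interval 0.44 to 1.40, edgeR adjusted p = 0.0246). That test called 1 of the 32 genes higher and 0 lower, where it called 5.5% of 16407 genes, 2.75% in each direction. At an unadjusted p under 0.05 it took 1 of the 32 as higher, against 10.2% of all genes, and 3 as lower (Crat, Eci2 and Etfb), against 15.5%. By either rule the 32 genes were thus not above the rate over all genes, and a gene not called may still differ. Of the 32 differences 17 were negative (median -0.03), as were 55.4% of all genes (median -0.06). Acsl5 was called with each of the 20 livers left out in turn, at values from 0.78, without shPKLR replicate 4, to 1.05. In the same difference 4 of 10 macrophage markers and 2 of 8 stellate cell markers were called lower and 0 of 8 hepatocyte markers were called. The summed macrophage markers ran from 118 to 215 CPM with shLUC, 108 to 292 with shPKLR, 90.2 to 375 with GFP and 80.6 to 248 with PKLR. The stellate cell sums were 157 to 245, 129 to 227, 207 to 443 and 131 to 257 CPM in that order, and the part of these cells in the result was not tested.

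The promoter window of Acsl5 is shown because it is the 1 gene called, and that of Cpt1a because it holds a single copy of the repeated unit of the PPARα response element. Both are the 250 bases before the start in RefSeq on GRCm38.p6, forward strand, at chr19:55253119-55253368 for Acsl5 and chr19:3323051-3323300 for Cpt1a. Both windows lie inside the gene spans used here, which start upstream at 55251938 and 3322334, so another annotated start precedes each window. Capitals mark CCAAT and AGGTCA, read on either strand.
Acsl5: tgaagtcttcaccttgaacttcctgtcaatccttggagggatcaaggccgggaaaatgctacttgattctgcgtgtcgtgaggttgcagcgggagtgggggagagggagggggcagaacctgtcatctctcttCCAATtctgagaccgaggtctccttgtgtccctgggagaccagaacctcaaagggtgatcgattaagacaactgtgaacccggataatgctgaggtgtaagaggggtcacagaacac
Cpt1a: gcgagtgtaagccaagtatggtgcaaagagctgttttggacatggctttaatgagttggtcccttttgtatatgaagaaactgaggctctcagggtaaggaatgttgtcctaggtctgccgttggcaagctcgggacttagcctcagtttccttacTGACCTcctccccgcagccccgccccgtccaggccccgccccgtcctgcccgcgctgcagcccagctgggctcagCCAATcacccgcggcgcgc

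The table of promoters matched 24 of the 32 genes, with 27 windows. This unit, AGGTCA, searched on both strands, was in 4 of the 27 windows (Acadm, Acadvl, Cpt1a and Creb3l3), or 14.8%, and in 14.0% of all 32851 windows. Its direct repeat AGGTCANAGGTCA, which contains the unit, and the looser AGGNCANAGGNCA were in 0 of the 27 windows, and in 0.0335% and 0.338% of all windows. The CCAAT box was in 13 of the 27 windows, or 48.1%, and in 33.8% of all. A match describes letters in this window only.

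Crat, carnitine acetyltransferase, which moves acetyl groups between coenzyme A and carnitine, had the smallest adjusted p of the 32 genes in overexpression. GFP replicates 1 to 5 were at 135, 79.6, 98.7, 91.8 and 73.9 CPM and PKLR replicates at 79.0, 42.1, 43.9, 58.3 and 37.0 CPM. Only PKLR replicate 1 lay inside the range of the GFP livers. The mean with PKLR was 54.3% of that with GFP, with a log2 fold change of -0.87 (SE 0.22, edgeR adjusted p = 0.0776). Without PKLR replicate 1 it was -1.07 and was called (edgeR adjusted p = 0.0305), and over the other libraries left out in turn the smallest change was -0.71, without GFP replicate 1. With shLUC, Crat was at 59.0, 54.1, 54.1, 76.6 and 67.2 CPM and with shPKLR at 37.2, 50.3, 60.7, 35.9 and 92.1 CPM. Here the groups overlapped, shPKLR livers lying both below and above all shLUC livers (log2 fold change -0.18, SE 0.24, edgeR adjusted p = 0.70). Without shPKLR replicate 4 the value for Crat was -0.059, and without shPKLR replicate 5 it was -0.44.

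Cpt1a, the carnitine palmitoyltransferase that sets the rate of entry into mitochondria, went from 402 to 501 CPM over the GFP livers and from 272 to 469 over the PKLR livers, with medians of 459 and 324. The groups overlapped through PKLR replicates 1 and 4 (log2 fold change -0.34, SE 0.14, edgeR adjusted p = 0.23). Over the shLUC livers it ran from 264 to 331 CPM and over the shPKLR livers from 167 to 453, so that the knockdown group spread to both sides of its control (log2 fold change -0.07, SE 0.24). For Cpt1a the knockdown value was 0.07 without shPKLR replicate 4 and -0.31 without shPKLR replicate 5. Cpt2, which reverses the carnitine step inside mitochondria, was the 1 gene whose overexpression groups did not overlap. All GFP livers were at or above 132.5 CPM and all PKLR livers at or below 131.1 CPM, with means of 140.0 ± 7.43 and 119.7 ± 9.99 CPM (SD, n = 5 each) and a log2 fold change of -0.21 (SE 0.08, edgeR adjusted p = 0.17). Non-overlap with PKLR lower was met by 2.17% of all genes, and non-overlap with PKLR higher by 2.70%, of which 0 were among the 32. For Acsl1, another acyl-CoA synthetase, and Slc25a20, the carnitine carrier, both experiments gave negative values between -0.21 and -0.08 and none was called. Without shPKLR replicate 4 the knockdown values were -0.059 for Acsl1 and -0.041 for Slc25a20.

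**Figure D3:**
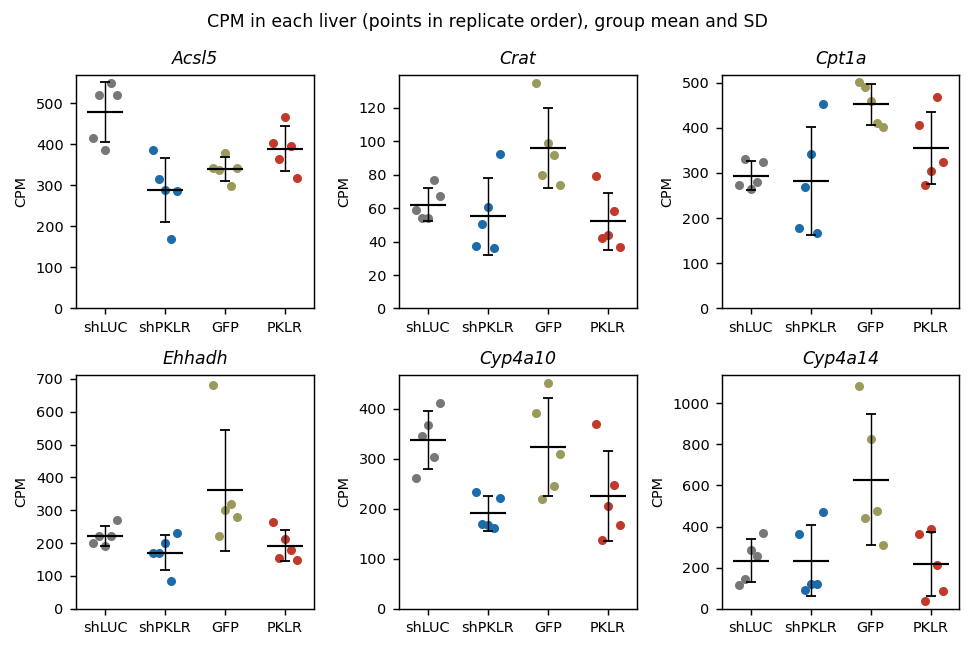
CPM (linear axes from 0) of 6 genes in each liver, 5 points per vector group in replicate order, with the group mean (wide line) and SD (error bar). The shPKLR livers of Acsl5 and Cyp4a10 lie below all shLUC livers, and Crat, Ehhadh and Cyp4a14 are lower in most PKLR than GFP livers, with 1 high GFP liver of Ehhadh at 683 CPM.

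In the mitochondrial spiral all 8 genes had negative values in the knockdown (median -0.12) and 5 of 8 in overexpression (median -0.04), and none was called in either. The knockdown count rests on shPKLR replicate 4: without it 5 of 8 were negative, with a median of -0.015 and values from -0.19 to 0.013. Hadh, the short-chain hydroxyacyl-CoA dehydrogenase, was at 325, 334, 346, 364 and 341 CPM with shLUC and at 280.2, 319, 301, 224 and 309.8 CPM with shPKLR. Those groups did not overlap, and replicate 4 was the lowest. The log2 fold change was -0.26 (SE 0.12, edgeR adjusted p = 0.33), and -0.19 without shPKLR replicate 4. Of the 32 genes 3, Acsl5, Hadh and Cyp4a10, had shPKLR livers all below the shLUC livers, which 1.81% of all genes did, and 0 had them all above, which 1.41% did. Without shPKLR replicate 4 the same 3 genes met this rule, as did 2.04% of all genes.

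Hadhb, the beta subunit of the trifunctional protein, had the smallest p of the spiral in overexpression. GFP livers were at 147, 138, 147, 124 and 124 CPM and PKLR livers at 143, 103, 117, 131 and 111 CPM. Replicates 1 and 4 of PKLR lay within the GFP range and the other 3 below it (log2 fold change -0.16, SE 0.10, edgeR adjusted p = 0.43). The chain-length specific acyl-CoA dehydrogenases Acadvl, Acadl, Acadm and Acads, which open each round, had values from -0.28 to -0.08 in the knockdown and from -0.18 to 0.13 in overexpression. Without shPKLR replicate 4 the knockdown values were -0.049 for Acadvl, -0.029 for Acadl, -0.0009 for Acadm and -0.11 for Acads. The very long-chain enzyme Acadvl was at 32.1 CPM in shPKLR replicate 4 and at 88.0 to 146 CPM in the other shPKLR livers, against 106 to 141 CPM with shLUC. Hadha, the alpha subunit of the trifunctional protein, had values of -0.10, or 0.0026 without shPKLR replicate 4, and -0.06. Acaa2, a thiolase of the spiral, was the steadiest of the 32, with a coefficient of variation (SD over mean) within groups of 7.45% on average. Its values were -0.02, or 0.0035 without shPKLR replicate 4, and 0.03.

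Of the 3 helpers for unsaturated fatty acids none was called. Eci2, an enoyl-CoA isomerase, was at 105, 87.7, 107, 96.8 and 87.8 CPM with shLUC and at 113, 129, 94.8, 128 and 153 CPM with shPKLR. Only shPKLR replicate 3 lay within the control range (log2 fold change 0.34, SE 0.14, edgeR adjusted p = 0.30). With GFP it was at 118, 81.3, 117, 124 and 113 CPM and with PKLR at 111, 94.5, 86.2, 117 and 107 CPM, overlapping throughout (log2 fold change -0.09, SE 0.12). The other mitochondrial isomerase, Eci1, was at 102, 114, 138, 107 and 116 CPM with GFP and 141, 110.1, 104, 131 and 122 CPM with PKLR, with ranges that nearly coincided (log2 fold change 0.09, SE 0.11). The dienoyl-CoA reductase Decr1 had values of -0.06, or -0.015 without shPKLR replicate 4, and -0.07.

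Electron transfer flavoprotein carries electrons from the acyl-CoA dehydrogenases to the respiratory chain. Its beta subunit gene Etfb was at 23.9, 14.9, 26.6, 22.1 and 15.6 CPM with shLUC and at 34.0, 22.4, 20.3, 71.6 and 20.4 CPM with shPKLR. Replicate 4 alone was over 2-fold above all other livers of both groups. The log2 fold change was 0.71 with all livers (SE 0.34, edgeR adjusted p = 0.34) and 0.23 without shPKLR replicate 4. In that liver Etfdh, the membrane oxidoreductase that takes over the electrons, was at 78.9 CPM against 171 to 215 in the other shPKLR livers, and Etfa was the lowest of its group at 182 CPM. Exon lengths, merged over all annotated transcripts, are 1164 bases for Etfb, the shortest of the 32, 1835 for Etfa, the third shortest, and 7505 for Etfdh. The part of length in the values of these 3 genes was not tested. In overexpression Etfb was at 25.1, 21.2, 22.1, 18.0 and 22.2 CPM with GFP and 16.3, 21.7, 14.9, 18.3 and 22.3 CPM with PKLR (log2 fold change -0.20, SE 0.12, edgeR adjusted p = 0.41), and these groups overlapped. Of the distinct 50-base stretches of the Etfb transcripts 44.8% also occur in another annotated gene.

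All 5 peroxisomal genes had negative values in overexpression (median -0.28) and 4 of 5 in the knockdown (median -0.14, or -0.072 without shPKLR replicate 4), and none was called. Ehhadh (ENSMUSG00000022853; GRCm38 chromosome 16, 21761287 to 21787807, reverse strand) encodes the L-bifunctional enzyme, a classical PPARα target. GFP livers were at 683, 223, 300.1, 319 and 278 CPM and PKLR livers at 264, 154, 212, 180.3 and 149.7 CPM. PKLR replicate 1 alone lay within the GFP range, and GFP replicate 1 was over 2-fold above the next liver. The log2 fold change was -0.90 (SE 0.29, edgeR adjusted p = 0.13), and -0.53 without GFP replicate 1. With shLUC it was at 202, 223, 191, 223 and 271 CPM and with shPKLR at 171, 169, 199.6, 85.0 and 229.8 CPM, with 3 shPKLR livers below the control range (log2 fold change -0.39, SE 0.22, edgeR adjusted p = 0.39, and -0.22 without shPKLR replicate 4).

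The peroxisomal thiolase genes Acaa1a and Acaa1b are near copies on chromosome 9 and are shown side by side because reads could be shared between them. Of the 50-base stretches of Acaa1b 30.5% also occur in Acaa1a, and of those of Acaa1a 12.4% occur in Acaa1b. Their promoters were 40.5% identical over the alignment of 250 bases each. The windows, from the same RefSeq table, are chr9:119341044-119341293 on the forward strand for Acaa1a and chr9:119157094-119157343 on the reverse strand for Acaa1b, with CCAAT in capitals on either strand. The Acaa1a window lies inside the gene span used here, which starts at 119339676, and that of Acaa1b lies just before its span, which ends at 119157093.
Acaa1a: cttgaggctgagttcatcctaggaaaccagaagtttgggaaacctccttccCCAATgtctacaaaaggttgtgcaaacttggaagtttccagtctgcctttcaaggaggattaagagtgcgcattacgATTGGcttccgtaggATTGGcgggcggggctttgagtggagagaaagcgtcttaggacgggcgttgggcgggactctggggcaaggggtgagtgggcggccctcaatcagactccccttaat
Acaa1b: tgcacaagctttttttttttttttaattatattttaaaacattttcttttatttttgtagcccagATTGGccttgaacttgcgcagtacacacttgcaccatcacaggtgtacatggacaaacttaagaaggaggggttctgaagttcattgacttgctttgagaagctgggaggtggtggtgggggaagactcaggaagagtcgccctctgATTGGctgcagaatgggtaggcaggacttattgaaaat

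Acaa1b went from 1145 to 1473 CPM over the GFP livers and from 740.3 to 1469 CPM over the PKLR livers, and PKLR replicate 1 was the 1 PKLR liver within the GFP range. Its log2 fold change was -0.44 (SE 0.18, edgeR adjusted p = 0.21), and that of Acaa1a was -0.28 (SE 0.14, edgeR adjusted p = 0.31). With the counts of both genes summed it was -0.40 (edgeR adjusted p = 0.23). In the knockdown the values were -0.20 for Acaa1b and 0.04 for Acaa1a, and -0.20 and -0.072 without shPKLR replicate 4. Hsd17b4, the D-bifunctional enzyme, and Pex11a, which promotes peroxisome division, had values from -0.14 to -0.01 over both experiments, and without shPKLR replicate 4 knockdown values of -0.04 and 0.035.

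Omega oxidation held the largest fold changes and the widest spread. Cyp4a10 (ENSMUSG00000066072; GRCm38 chromosome 4, 115518264 to 115533649, forward strand), a fatty acid omega-hydroxylase, was at 262, 346, 368, 303 and 412 CPM with shLUC. With shPKLR it was at 233, 169, 167, 161 and 222 CPM, so that every shPKLR liver was below every shLUC liver. The mean was 56.3% of the control mean, with a log2 fold change of -0.84 (SE 0.16, edgeR adjusted p = 0.11). That was the smallest adjusted p of the 32 genes in the knockdown, and with any 1 library left out the value stayed between -0.92 and -0.76 with edgeR adjusted p from 0.082 to 0.31. GFP livers were at 392.2, 219, 452, 246 and 309 CPM and PKLR livers at 368, 138, 206, 247 and 167 CPM, with overlap (log2 fold change -0.51, SE 0.28, edgeR adjusted p = 0.35). Its paralogs Cyp4a31 and Cyp4a32 share sequence with it, 24.5% of its 50-base stretches being found in Cyp4a32. Summed over the 3 genes the knockdown value was -0.67 (edgeR adjusted p = 0.13).

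Cyp4a14, another omega-hydroxylase and PPARα target, was at 1086, 442, 828, 477 and 312 CPM with GFP and at 365, 39.8, 388, 213 and 85.9 CPM with PKLR. Replicates 1 and 3 of PKLR lay above the lowest GFP liver. The mean with PKLR was 34.7% of that with GFP (log2 fold change -1.52, SE 0.59, edgeR adjusted p = 0.20). With shLUC it was at 117, 145, 285, 256 and 371 CPM and with shPKLR at 366, 89.0, 120.3, 122 and 469.6 CPM. Here the means were 235 and 233 CPM, and shPKLR replicates 1 and 5 stood apart from the other 3 (log2 fold change -0.02, SE 0.46). For Cyp4a14 this was 0.15 without shPKLR replicate 4, and without shPKLR replicate 5 it was -0.43. The coefficient of variation within groups averaged 60.4%, the largest of the 32.

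Cyp4a12a, also an omega-hydroxylase, known in mice as higher in males, had the next largest coefficient of variation, 40.1%. It was at 466, 401, 210.1, 211 and 198 CPM with shLUC and at 158, 402, 365, 333 and 187 CPM with shPKLR. GFP livers were at 125, 282, 297, 223 and 311 CPM and PKLR livers at 269, 365, 74.4, 317 and 472 CPM. Groups overlapped in both experiments, with values of -0.05 (SE 0.31), or -0.10 without shPKLR replicate 4, and 0.29 (SE 0.42). Since 48.9% of its 50-base stretches occur in Cyp4a12b, the level of each of these paralogs is uncertain. Aldh3a2, the fatty aldehyde dehydrogenase that follows in the route, was at 569, 502, 495, 630.5 and 528 CPM with GFP and 520.3, 301, 315, 485 and 349.7 CPM with PKLR. PKLR replicate 1 alone lay within the GFP range (log2 fold change -0.45, SE 0.16, edgeR adjusted p = 0.15), while with shPKLR the range of 228 to 496 CPM enclosed that of shLUC, 359 to 418 CPM.

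The 1 ketone body gene of the 32 was Bdh1, the mitochondrial dehydrogenase that turns acetoacetate into beta-hydroxybutyrate. It was at 261, 248.5, 236, 268 and 245 CPM with shLUC and at 205, 219, 213, 186 and 323 CPM with shPKLR. Of the shPKLR livers 4 were below and replicate 5 was above all shLUC livers (log2 fold change -0.15, SE 0.15, edgeR adjusted p = 0.62). For Bdh1 the value was -0.079 without shPKLR replicate 4 and -0.30 without shPKLR replicate 5. With GFP it was at 248, 287, 309, 287 and 261 CPM and with PKLR at 287, 219, 263, 278 and 240.1 CPM, overlapping (log2 fold change -0.10, SE 0.10, edgeR adjusted p = 0.62).

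Vnn1, a pantetheinase whose gene is a PPARα target, was at 74.7, 67.7, 52.6, 77.6 and 62.9 CPM with shLUC and at 49.9, 52.8, 32.7, 37.9 and 69.1 CPM with shPKLR. Of the shPKLR livers 3 lay below all shLUC livers (log2 fold change -0.48, SE 0.19, edgeR adjusted p = 0.30). With PKLR it ran from 41.9 to 114 CPM around the GFP range of 49.0 to 87.0 CPM (log2 fold change 0.18, SE 0.27). Creb3l3, a liver transcription factor that acts with PPARα, was at 280.1, 281, 289, 266 and 262 CPM with GFP and at 256, 252, 205, 267 and 258 CPM with PKLR. Only PKLR replicate 4 reached the GFP range (log2 fold change -0.14, SE 0.09, edgeR adjusted p = 0.41), and the knockdown value was 0.14 (SE 0.15).

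As mean log2 level of a block relative to its control mean, omega oxidation ran from -1.30 to -0.07 over the PKLR livers, and from -0.18 to 0.32 over the GFP livers. The peroxisomal block ran from -0.63 to 0.09 with PKLR and from -0.25 to 0.20 with GFP, and activation and the carnitine shuttle from -0.46 to -0.01 against -0.13 to 0.20. By contrast the mitochondrial spiral ran from -0.26 to 0.12 with PKLR and from -0.06 to 0.14 with GFP, and electron transfer from -0.15 to -0.01 and -0.13 to 0.10. With shPKLR omega oxidation ran from -0.59 to 0.08 and the spiral from -0.75 to 0.12. In every block the ranges of vector and control livers overlapped, and no test was made of the block means or of differences between blocks.

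**Figure D4:**
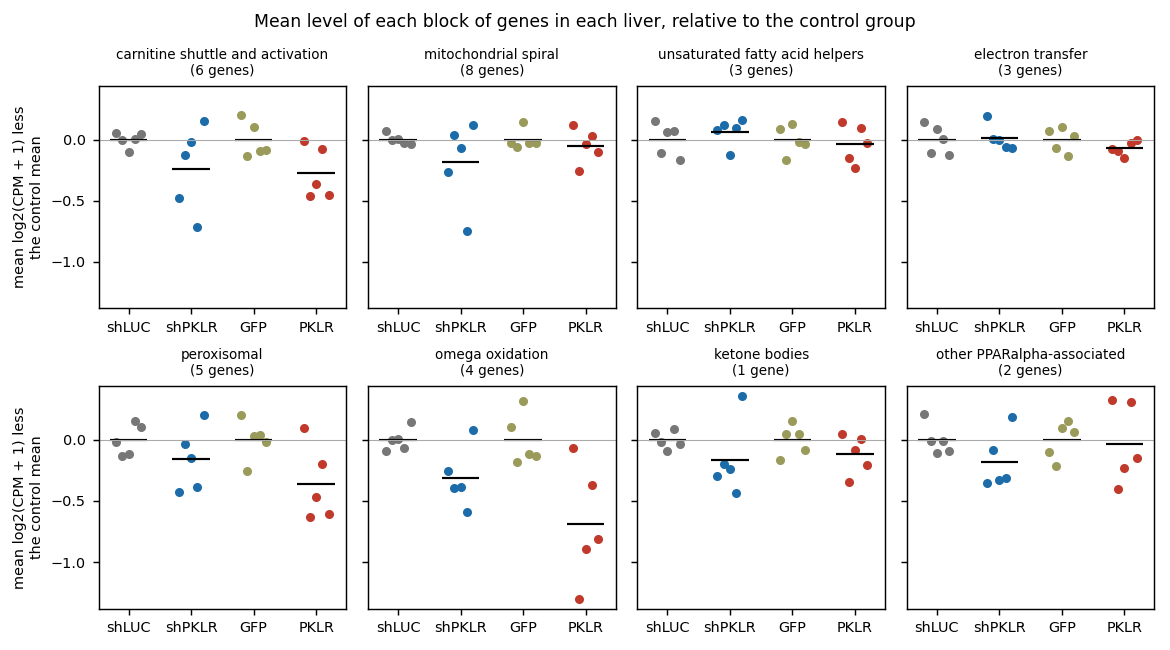
Mean over the genes of each block of log2(CPM + 1) less the control mean (shLUC for the 2 hairpin groups, GFP for the other 2), 1 point per liver and a line at the group mean. PKLR livers of the omega oxidation block reach from -1.30 to -0.07 and those of electron transfer only from -0.15 to -0.01.

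In the mean of the 2 effects, which can differ from 0 through 1 experiment alone, 28 of the 32 genes were negative (median -0.11; 48.2% of 16407 genes negative, median 0.0067). None was called by edgeR, which called 0% of all genes in this comparison, and 6 were lower at an unadjusted p under 0.05 (Acsl5, Crat, Ehhadh, Acaa1b, Cyp4a10 and Aldh3a2), as were 4.22% of all genes, with 0 higher against 5.29%. Of these 6 genes Acsl5 had opposite signs in the 2 experiments, -0.74 and 0.21. DESeq2 called 1 lower, Cyp4a10, against 0.177% of all genes, and limma-voom called 0. The smallest edgeR adjusted p was 0.25, for Cyp4a10 at -0.68 (SE 0.16).

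The 2 control groups were compared as well, although vector and experiment cannot be told apart between them. GFP less shLUC gave 0 of 32 calls by edgeR, against 5.81% of 16407 genes (3.47% higher and 2.33% lower), while DESeq2 called 1 lower, Acsl5, against 3.89% of all genes, and limma-voom none. Of the 32 values 11 were negative, where 45.3% of all genes were. At an unadjusted p under 0.05, 6 of the 32 were higher with GFP (Cpt1a, Crat, Ehhadh, Cyp4a14, Aldh3a2 and Creb3l3), as were 11.6% of all genes, and 1 was lower (Acsl5), as were 8.07%. The GFP livers of Cpt1a, Acadm and Aldh3a2 were all above the shLUC livers, which 3.97% of all genes showed, and those of Acsl5 all below, which 4.02% showed. For Cyp4a14 the control means were 235 CPM with shLUC and 629 CPM with GFP (log2 difference 1.42, SE 0.56, edgeR adjusted p = 0.15). PKLR livers had a mean Cyp4a14 of 218 CPM. Of the 6 genes higher with GFP, all but Creb3l3 were also lower with PKLR than with GFP at an unadjusted p under 0.05 in edgeR. Means with shLUC, GFP and PKLR were 294, 452 and 355 CPM for Cpt1a and 62.2, 95.8 and 52.0 CPM for Crat. For Ehhadh they were 222, 360 and 192 CPM, and for Aldh3a2 390, 545 and 394 CPM. The comparison of the controls shares the GFP livers with the one of PKLR and GFP.

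Levels can be compared between genes only per length. The length used is that of the exons merged over all annotated transcripts, which can exceed that of the transcripts present, so the order is approximate. Of the 50-base stretches of Acaa1b 39.6% also occur in other genes, which leaves its level uncertain. In CPM per kb of exon, Acaa1b and Acaa2 were the highest in all 4 groups, at 583 ± 104 and 484 ± 44.0 with shLUC and at 682 ± 79.2 and 453 ± 32.3 with GFP (SD, n = 5 each). Those of Acaa1b and Acaa2 differed by less than the sum of their SDs with shLUC. At the low end Crat was last in all 4 groups, with 11.5 ± 1.79 with shLUC, 10.3 ± 4.27 with shPKLR, 17.8 ± 4.44 with GFP and 9.66 ± 3.16 with PKLR. Its nearest neighbours in the GFP livers, Etfb at 18.7 ± 2.18 and Eci2 at 19.9 ± 3.04, did not differ from it beyond their SDs.

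The median coefficient of variation of the 32 genes was larger in each vector group than in its control, at 10.6% with shLUC, 24.3% with shPKLR, 10.1% with GFP and 14.7% with PKLR. Over 7496 genes of at least 10 CPM it was 10.9%, 19.4%, 10.3% and 9.61% in the same order. These values are descriptions with no test.

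Of other genes of the same pathways and their regulators, 63 were in both tables. Among them 0 of 62 tested were called in the knockdown, against 0.00641% of all genes. In overexpression 2 of 63 were called higher, Acacb and Hmgcs1, against 1.19% of all genes, and 0 lower, against 0.846%. Acacb, the carboxylase that makes the malonyl-CoA which inhibits Cpt1a, was at 114, 212, 119, 197 and 258 CPM with shLUC and at 60.1, 78.7, 45.8, 48.4 and 60.3 CPM with shPKLR, with no overlap. GFP livers were at 45.9, 76.2, 80.8, 62.4 and 90.6 CPM and PKLR livers at 162, 169, 174, 152 and 90.7 CPM, the last just above the highest GFP liver. For the knockdown its log2 fold change was -1.63 (SE 0.24), which missed the threshold at an edgeR adjusted p of 0.0509, and for overexpression it was 1.08 (SE 0.20), with an edgeR adjusted p of 0.0245. Hmgcs1, which makes the precursor of cholesterol and not of ketone bodies, had values of -1.40 (SE 0.26) and 0.92 (SE 0.21), at edgeR adjusted p of 0.11 and 0.0494.

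In the overexpression effect less the knockdown effect 4 of the 63 were called higher and 3 lower, against 2.75% of all genes in each direction. Those called higher included Acacb, Hmgcs1 and Acad9, an acyl-CoA dehydrogenase that assembles complex I, at 0.77. Called lower were Slc22a5, the carnitine uptake transporter, at -1.27, Crot, the peroxisomal carnitine octanoyltransferase, at -0.97, and Cyp4f15, another omega-hydroxylase, at -0.81. Crot ran from 493 to 1080.0 CPM with GFP and from 351 to 487 CPM with PKLR, with no overlap (log2 fold change -0.71, SE 0.19, edgeR adjusted p = 0.0774). With shPKLR it had 0.24 (SE 0.20). In the mean of the 2 effects 0 of the 63 were called, as were 0% of all genes. Between the controls 3 of the 63 were called higher with GFP (Slc22a5, Crot and Acad12), against 3.47% of all genes. Called lower were 5 (Acacb, Hsd17b10, Pecr, Nr1h4 and Hmgcs1), against 2.33%. For Acad12, another acyl-CoA dehydrogenase gene, GFP less shLUC was 0.59 (SE 0.15, edgeR adjusted p = 0.0238), while PKLR less GFP, which shares the GFP livers, was -0.56 (SE 0.13, edgeR adjusted p = 0.0534). Ppara itself had log2 fold changes of -0.29 (SE 0.37) in the knockdown and 0.11 (SE 0.15) in overexpression and was called in no comparison.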

How the data were processed

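Read counts per gene came from the authors, who deposited 1 table per experiment with whole numbers that are not normalized. The submitters' processing notes name HISAT2, DESeq2, GRCm38 and mm10, with no versions or roles. How reads were counted, with which annotation and with what use of strand is not given in the sources used here, so that reads of overlapping genes and close paralogs may be split or shared. The library kit was a stranded one for total RNA, per the labels' protocols. Columns were matched to livers by name. Symbols, coordinates and exon lengths came from GENCODE M21 for GRCm38, which matched 26912 of 27052 and 26146 of 26286 identifiers.

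The members and gene lists were chosen with earlier results of these data known. Each experiment was fitted alone with edgeR 4.0.16 in R 4.3.3 (filterByExpr, TMM, robust quasi-likelihood test), with Benjamini-Hochberg adjustment over all genes and calls at 0.05. Difference, mean effect and control contrast came from 1 fit of all 20 livers on the 25238 genes in both tables. The SE is the size of the log2 fold change over the root of F. P-values set the difference between groups against the spread between livers, which edgeR moderates across genes. In the fit of all 20 livers that spread is pooled over both experiments. The steps were tested on simulated counts. Per-liver values were written out for genes called, for the smallest p of each block in either experiment and for the 3 largest coefficients of variation. Other pathway genes were named if called or among the 3 smallest p in either experiment, and Ppara was named as well; results for some of these genes are not reported here. Other members are given by range, and livers or values singled out beyond these rules were chosen after their values were seen. Alternatives were RLE size factors, 2 other filters, DESeq2 1.42.0, limma-voom (limma 3.58.1), a block for the replicate number, normalization without mitochondrial and ribosomal RNA genes, paralogs summed, 1 fit of all livers, shPKLR replicate 4 thinned, and each library left out. For groups that do not overlap, TMM within each experiment and leaving out shPKLR replicate 4 were added after seeing the data. Promoters were RefSeq sequences on GRCm38.p6, aligned with Biopython 1.88.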

Additional observations from a re-analysis of the deposited data

Results flagged for a closer look

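In 7 of 128 groups of 5 livers (32 genes in 4 groups) the highest or lowest liver was far from the other 4, by Dixon's criterion at 0.71. Chance flags about 1 in 20, or 6.4 of 128. No library held more than 1 of them. Etfb in shPKLR replicate 4 was at 71.6 CPM against 20.3 to 34.0 in the other 4, and Ehhadh in GFP replicate 1 was at 683 CPM against 223 to 319. Bdh1 in shPKLR replicate 5 was at 323 CPM against 186 to 219, and Acadl in shLUC replicate 4 was at 191 CPM against 169.9 to 175. Low livers were PKLR replicate 2 for Acadvl, at 110 CPM against 134 to 143, GFP replicate 2 for Eci2, at 81.3 CPM against 113 to 124, and PKLR replicate 3 for Creb3l3, at 205 CPM against 252 to 267.

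For Acsl5 the effect of overexpression differed from that of knockdown by 0.92 on the log2 scale (edgeR adjusted p = 0.0246, from 0.00953 to 0.0497 with each of the 20 livers left out). All 5 shPKLR livers were below all shLUC livers, and 4 of 5 PKLR livers were above the GFP mean.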

How the results depend on the processing

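The number of the 32 genes called lower in the knockdown, 0 by edgeR, was 2 with DESeq2 (Acsl5 and Cyp4a10) and 1 with 1 fit of all 20 livers (Acsl5, adjusted p = 0.0440). In overexpression it was 2 with DESeq2, and 0 to 1 with each library left out (Crat, without PKLR replicate 1). DESeq2 called 1 lower in the mean effect and 1 in the control contrast. DESeq2 called 260 genes in the knockdown where edgeR called 1, and 1107 in overexpression where edgeR called 322. With no filter on low counts 17 genes were called in the knockdown. With each library left out, medians ranged from -0.22 to -0.041 (knockdown), -0.15 to -0.051 (overexpression), -0.090 to 0.057 (difference), -0.15 to -0.072 (mean effect) and 0.040 to 0.12 (control contrast). Same-numbered livers correlated from -0.242 to 0.404 in the knockdown and from -0.0816 to 0.27 in overexpression, and 1 of 5 matched its own number best in each. Replicate numbers thus showed no regular pairing of the livers, but so few correlations cannot exclude it. With the replicate block the knockdown median was -0.16 with 3 genes called in all, and overexpression called 3 of the 32 lower (Crat, Ehhadh and Aldh3a2) and 544 genes in all. The cause of these moves was not tested. No called value changed sign. Among values not called, up to 8 of 32 changed sign in the knockdown, without shPKLR replicate 4. The Acsl5 difference was called under every alternative run. The lowest count of the 32 genes in a liver was 471, and the spread between 5 livers per group sets the precision.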
